A study of Mus musculus with 6 samples.

Results

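The genes described here are 40 genes of adipose progenitor cells and fibroblasts, chosen by name. All 40 had a row among the 17342 named genes of the expression tables, and 39 had a mean of at least 1 FPKM (fragments per kilobase of transcript, scaled to the mapped fragments of the library) over all libraries, the level required for testing. Dlk1 fell short of that level. The sequenced RNA came from inguinal white adipose tissue, the subcutaneous fat depot of the groin, of cold-stimulated C57BL/6 mice aged 8 weeks. The 3 wild-type (WT) libraries are numbered 1 to 3, and the 3 libraries of Rarres2-/- mice, which lack the gene for the adipocyte-secreted protein chemerin, (below, knockout libraries) are numbered 4 to 6. All 6 libraries come from cold-stimulated fat, and unstimulated fat was not part of the comparison. The labels used here do not give the duration of the cold, the deleted part of Rarres2 or whether each library came from its own mouse, so p-values measure the spread between libraries, which may be technical.

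Fat depots hold adipocytes in a stroma of progenitor cells and fibroblasts, which carry the receptor Pdgfra and secrete the extracellular matrix. In mouse subcutaneous fat, cells with Dpp4 and Pi16 lie in the reticular interstitium around the depot and act as early progenitors. They give rise to committed preadipocytes, and cells marked by F3 (CD142) and Clec11a have been described as a further stromal state. The members were therefore grouped by role: progenitor surface proteins (5 genes), interstitial progenitor genes (6), genes of other cell states (3), leucine-rich proteoglycans (5), elastic fibre genes (8), adhesive and secreted matrix genes (10) and intracellular proteins (3).

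For 27 of the 40 members RefSeq gave at least 1 promoter window, 250 bases before to 50 bases after a transcription start on GRCm38.p6, the assembly that mm10 stands for. The windows of 4 interstitial genes are shown because, among the interstitial genes with a window, they differed most between WT replicate 1 and the other WT libraries. Capitals mark matches, on either strand, to the TATA box (TATAAA), the CCAAT box (CCAAT), the GC box (GGGCGG), a TEAD motif (GGAATG), an AP-1 motif (TGANTCA) or a SMAD motif (CAGACA). The Dpp4 window lies on the minus strand at chr2:62412182-62412481, Pi16 on the plus strand at chr17:29318632-29318931, Wnt2 on the minus strand at chr6:18030396-18030695 and Sema3c on the plus strand at chr5:17574566-17574865.
Dpp4: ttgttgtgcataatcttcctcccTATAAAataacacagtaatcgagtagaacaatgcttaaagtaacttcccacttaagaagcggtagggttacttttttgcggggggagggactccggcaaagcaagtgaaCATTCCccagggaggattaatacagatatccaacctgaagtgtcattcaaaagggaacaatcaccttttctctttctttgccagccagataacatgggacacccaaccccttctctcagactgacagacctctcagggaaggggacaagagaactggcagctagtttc
Pi16: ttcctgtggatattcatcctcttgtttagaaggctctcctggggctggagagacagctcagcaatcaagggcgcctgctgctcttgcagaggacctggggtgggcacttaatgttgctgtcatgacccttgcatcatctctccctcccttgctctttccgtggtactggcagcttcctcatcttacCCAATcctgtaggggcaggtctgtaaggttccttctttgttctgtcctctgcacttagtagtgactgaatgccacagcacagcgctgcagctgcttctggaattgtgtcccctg
Wnt2: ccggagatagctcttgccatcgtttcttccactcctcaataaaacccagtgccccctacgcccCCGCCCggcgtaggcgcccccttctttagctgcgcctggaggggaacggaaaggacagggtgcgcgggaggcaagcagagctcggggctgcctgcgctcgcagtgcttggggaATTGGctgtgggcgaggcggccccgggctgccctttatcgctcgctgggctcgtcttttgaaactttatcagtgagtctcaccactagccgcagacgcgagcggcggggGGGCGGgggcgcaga
Sema3c: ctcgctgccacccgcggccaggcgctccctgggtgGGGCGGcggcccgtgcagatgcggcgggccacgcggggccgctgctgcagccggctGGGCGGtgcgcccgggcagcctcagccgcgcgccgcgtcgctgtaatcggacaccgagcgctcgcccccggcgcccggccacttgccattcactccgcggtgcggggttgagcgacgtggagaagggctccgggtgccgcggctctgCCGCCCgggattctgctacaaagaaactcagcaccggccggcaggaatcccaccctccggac
No motif of the 6 was found in all 4 windows. Dpp4 held a TATAAA match, at position -227 relative to the start, and a TEAD match. Matches to the CCAAT box were found in Pi16 and Wnt2, and to the GC box in Wnt2 and Sema3c. Over all 32 member windows a GC box was found in 46.9%, against 35.6% of the 32817 windows of all genes. The CCAAT box was found in 34.4% against 37.4%, the TATA box in 12.5% against 13.6%, the SMAD motif in 18.8% against 21.0%, the TEAD motif in 6.25% against 14.7% and the AP-1 motif in 6.25% against 7.81%. A match is a stretch of letters and not a site shown to be bound.

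Rarres2 was at 436, 609.6 and 505 FPKM in the WT libraries and at 0.260, 6.35 and 1.41 FPKM in the knockout libraries, in the order of the replicates. Adipoq, an adipocyte gene, was at 2118 to 2809 FPKM in all libraries, and the defining mesothelial genes Msln, Upk3b and Wt1 were at no more than 0.0596 FPKM, so the tissue held fat and hardly any mesothelial RNA. The median level of tested genes was 9.05 to 9.37 FPKM. WT replicate 1 stood apart. Its relative depth, read from the spacing of the lowest values, was 0.495 times that of WT replicate 2, the others being at 0.696 to 1.01 times, and the small nucleolar RNA gene Snord2 held 62.1% of its summed FPKM. Summed over 12 endothelial markers, it was at 463 FPKM and Rarres2-/- replicate 4 at 264 FPKM, while the other 4 libraries were at 70.6 to 86.6 FPKM. Summed over 11 skeletal muscle markers it was at 1574 FPKM, against 196 to 561 FPKM elsewhere. Results that rest on these libraries are therefore given with and without them.

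The 6 interstitial genes had the same order of libraries. Each was lowest in WT replicate 1, intermediate in the 3 Rarres2-/- libraries and highest in WT replicates 2 and 3. Dpp4, a cell surface peptidase (chromosome 2, 62330073 to 62412315), was at 0.692, 30.1 and 31.5 FPKM in the WT libraries and 9.47, 15.8 and 9.73 FPKM in the knockout libraries. The genotypes overlapped because the lowest and the highest values were both in WT. Pi16, a peptidase inhibitor of the cell surface (chromosome 17, 29318796 to 29328903), was at 12.3, 358 and 352 FPKM in the WT libraries and 124, 182 and 132 FPKM in the knockout libraries. Between WT replicates 2 and 1 the level differed 43.5-fold for Dpp4 and 29.1-fold for Pi16. In bulk tissue, fewer cells of a type and less RNA per cell cannot be told apart.

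Wnt2, a secreted Wnt ligand, was at 0.388, 6.79 and 5.75 FPKM in the WT libraries and 2.56, 3.45 and 3.75 FPKM in the knockout libraries. Sema3c, a secreted semaphorin, was at 3.94, 32.9 and 31.7 FPKM in the WT libraries and 13.7, 24.6 and 19.6 FPKM in the knockout libraries. Both again had WT replicate 1 below and WT replicates 2 and 3 above all Rarres2-/- libraries. Anxa3, an annexin that binds phospholipids, was at 27.2, 111 and 108 FPKM in the WT libraries and 43.7, 76.5 and 56.0 FPKM in the knockout libraries. Cd55, a complement-regulating surface protein, was at 9.35, 28.4 and 31.1 FPKM in the WT libraries and 15.8, 26.4 and 24.3 FPKM in the knockout libraries. Cd55 varied least of the 6, with a 3.03-fold difference between WT replicates 2 and 1.

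**Figure D1:**
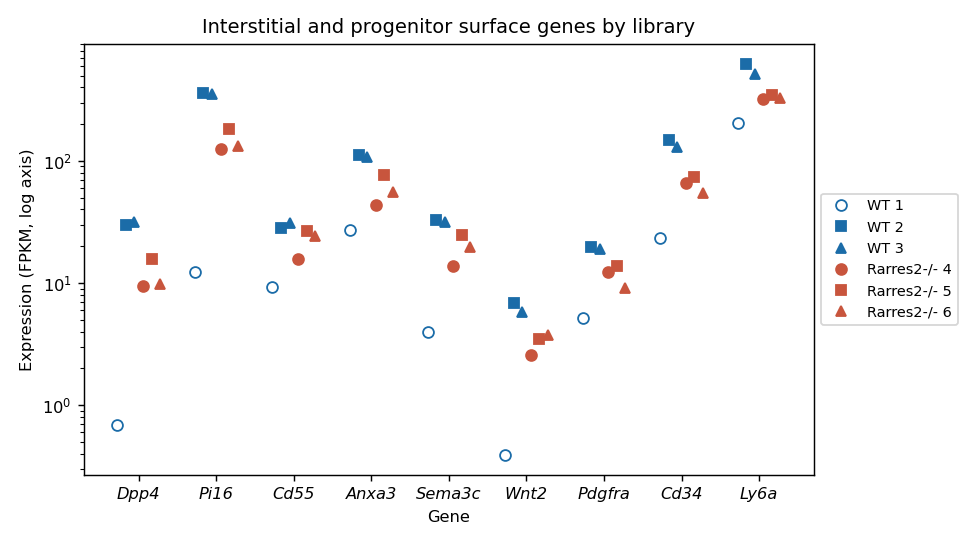
Expression in FPKM (log axis) of the 6 interstitial genes and of Pdgfra, Cd34 and Ly6a, 1 point per library, WT in blue and Rarres2-/- in red. In each of the 9 genes WT replicate 1 (open circle) is the lowest point, WT replicates 2 and 3 are the highest, and the Rarres2-/- libraries lie between them.

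None of the 6 interstitial genes passed the genotype test, which needs an adjusted p under 0.05. With limma on log2(FPKM + 1) (on which the change of low genes is compressed) the Rarres2-/- minus WT difference was 0.05 (SE 1.10) for Dpp4 and 0.29 (SE 1.23) for Pi16. It was 0.17 (SE 0.734) for Sema3c, 0.08 (SE 0.451) for Cd55, 0.01 (SE 0.630) for Wnt2 and -0.27 (SE 0.550) for Anxa3. Each limma adjusted p was 0.999. These differences rest on WT replicate 1. Without it they were -1.36 (SE 0.238) for Dpp4, -1.29 (SE 0.235) for Pi16, -0.92 (SE 0.258) for Anxa3, -0.78 (SE 0.175) for Wnt2, -0.75 (SE 0.248) for Sema3c and -0.44 (SE 0.240) for Cd55. All 3 Rarres2-/- libraries then lay below both remaining WT libraries in each of the 6 genes. The limma adjusted p in that fit was 0.208 for Dpp4 and Pi16 and 0.252 to 0.783 for the others. Over the 16 alternatives it ran from 0.0648 to 1 for Dpp4 and from 0.0548 to 1 for Pi16. Both low ends came from the fit without WT replicate 1 and Rarres2-/- replicate 4, chosen after the values were seen. In the planned fits the lowest limma adjusted p was 0.177 for Dpp4, with array weights, and 0.208 for Pi16, without WT replicate 1.

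Of the 5 progenitor surface genes, 4 followed the interstitial order. Pdgfra, the receptor for platelet-derived growth factor that marks adipose progenitors (chromosome 5, 75151322 to 75198206), was at 5.16, 19.7 and 18.9 FPKM in the WT libraries and 12.3, 13.7 and 9.16 FPKM in the knockout libraries. Cd34, a sialomucin of progenitor and endothelial cells, was at 23.2, 149 and 129 FPKM in the WT libraries and 65.6, 73.8 and 54.7 FPKM in the knockout libraries. Ly6a, the stem cell antigen Sca-1, was at 206, 627 and 515 FPKM in the WT libraries and 319, 348 and 325 FPKM in the knockout libraries. Thy1, a membrane-anchored glycoprotein of fibroblasts, was at 18.0, 39.4 and 44.4 FPKM in the WT libraries and 28.8, 18.8 and 27.2 FPKM in the knockout libraries. For these 4 genes WT replicate 1 was lowest and WT replicates 2 and 3 were above every other library, as for Dpp4.

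Pdgfrb, the receptor that is also carried by pericytes and smooth muscle cells, had another order. It was at 13.3, 6.76 and 5.07 FPKM in the WT libraries and 8.59, 4.16 and 4.66 FPKM in the knockout libraries, highest in WT replicate 1 and next in Rarres2-/- replicate 4. The 10 mural cell markers had the same 2 libraries on top, with a summed level of 195 FPKM in WT replicate 1 and 192 FPKM in Rarres2-/- replicate 4, against 54.2 to 79.3 FPKM in the other 4. The part of mural cells in the Pdgfrb level was not tested. The log2 genotype differences were -0.12 (SE 0.470) for Pdgfra, -0.42 (SE 0.371) for Pdgfrb, -0.29 (SE 0.413) for Ly6a, -0.26 (SE 0.668) for Cd34 and -0.36 (SE 0.356) for Thy1, each with a limma adjusted p of 0.999. Without WT replicate 1 they were -0.69 for Pdgfra, -0.07 for Pdgfrb, -0.78 for Ly6a, -1.10 for Cd34 and -0.75 for Thy1. The limma adjusted p was then 0.208 for Cd34 and at least 0.335 for the other 4.

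The 3 genes of other cell states did not share the interstitial order. Dlk1, the preadipocyte factor Pref-1, was at 0.0391 to 0.311 FPKM in all libraries and was not tested. Clec11a, a secreted lectin-family growth factor, was at 2.03, 5.05 and 4.49 FPKM in the WT libraries and 6.36, 2.36 and 3.02 FPKM in the knockout libraries, highest in Rarres2-/- replicate 4. Its log2 difference was -0.01 (SE 0.374). It was -0.31 without WT replicate 1, -0.34 without Rarres2-/- replicate 4 and -0.65 without both. Icam2 is known as an adhesion molecule of endothelial cells. It was at 17.9, 3.37 and 4.88 FPKM in the WT libraries and 9.96, 3.71 and 5.28 FPKM in the knockout libraries, so that WT replicate 1 and Rarres2-/- replicate 4 were highest, as they were for the summed endothelial markers. Its log2 difference was -0.19 (SE 0.576), and 0.44 (SE 0.366) without WT replicate 1.

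The leucine-rich proteoglycans, small proteins that bind collagen fibrils, split by library pattern. Dcn (decorin) was at 353, 1259.5 and 1173 FPKM in the WT libraries and 558, 849 and 655 FPKM in the knockout libraries. Lum (lumican) was at 39.9, 120.2 and 104 FPKM in the WT libraries and 58.3, 49.2 and 55.2 FPKM in the knockout libraries, and Ogn (osteoglycin) at 20.3, 159 and 149 FPKM and at 61.8, 74.4 and 53.7 FPKM. Dcn, Lum and Ogn had WT replicate 1 lowest and WT replicates 2 and 3 highest. Bgn (biglycan) was at 51.2, 67.4 and 47.2 FPKM in the WT libraries and 122, 58.5 and 60.9 FPKM in the knockout libraries. Prelp was at 63.0, 85.6 and 70.2 FPKM in the WT libraries and 241, 82.9 and 108 FPKM in the knockout libraries. Bgn and Prelp stood out in Rarres2-/- replicate 4 and were at 47.2 to 67.4 FPKM and 63.0 to 108 FPKM in the other libraries.

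Prelp had the smallest unadjusted p of all members, 0.0728, with a log2 difference of 0.83 (SE 0.391) and a limma adjusted p of 0.999. The difference was 0.38 without Rarres2-/- replicate 4 and 0.28 without WT replicate 1 and Rarres2-/- replicate 4. Bgn had a difference of 0.47 (SE 0.315) and 0.08 without both libraries. Lum had a difference of -0.54 (SE 0.402), which was -1.03 (SE 0.171) without WT replicate 1 and -1.08 (SE 0.122) without both. In that last fit, chosen after the values were seen, Lum had a limma adjusted p of 0.0419, and over its 16 alternatives the adjusted p ran from 0.0168 to 1. The difference for Ogn was -0.33 with all libraries and -1.28 without WT replicate 1, and for Dcn -0.25 and -0.84.

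Elastic fibre genes code for elastin, for fibrillin microfibrils and for the fibulins that link them. Fbln1, Fbn1, Mfap5 and Efemp1 followed the interstitial order. Fbln1 was at 1.68, 24.0 and 23.8 FPKM in the WT libraries and 16.2, 14.4 and 6.86 FPKM in the knockout libraries. Mfap5, a microfibril protein, was at 15.6, 188 and 141 FPKM in the WT libraries and 56.5, 92.8 and 94.7 FPKM in the knockout libraries. WT replicate 1 was lowest and WT replicates 2 and 3 highest for both. Fbn1 (fibrillin-1) ran from 4.53 to 42.8 FPKM and Efemp1 (fibulin-3) from 15.4 to 92.7 FPKM, with WT replicate 1 at the low end of each. The log2 differences of these 4 genes were -0.06 to 0.17 with all libraries and -1.03 to -0.62 without WT replicate 1.

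The other elastic fibre genes were flatter or led by single libraries. Eln (elastin) was at 30.5, 63.7 and 26.4 FPKM in the WT libraries and 45.6, 21.7 and 28.8 FPKM in the knockout libraries. Fbln5 was at 5.34, 7.40 and 6.85 FPKM in the WT libraries and 10.3, 6.15 and 5.90 FPKM in the knockout libraries. Mfap4 was at 0.612, 7.40 and 1.95 FPKM in the WT libraries and 3.23, 3.12 and 3.24 FPKM in the knockout libraries. Eln and Mfap4 were highest in WT replicate 2 and Fbln5 in Rarres2-/- replicate 4, and the genotypes overlapped in all of them. Fbln2 was at 11.9 to 23.1 FPKM, also highest in Rarres2-/- replicate 4. The log2 differences were -0.28 (SE 0.395) for Eln, 0.14 (SE 0.229) for Fbln5, 0.30 (SE 0.547) for Mfap4 and 0.03 (SE 0.281) for Fbln2.

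Among adhesive and secreted matrix genes, Sparc, a collagen-binding matricellular protein (chromosome 11, 55394159 to 55420080), was the only member whose genotypes did not overlap with all libraries in. It was at 2181, 2933 and 2177 FPKM in the WT libraries and 1817, 1556 and 2022 FPKM in the knockout libraries. Means were 2430.3 ± 435 FPKM for WT and 1799 ± 233 FPKM for Rarres2-/- libraries (SD, n = 3 each). The log2 difference was -0.43 (SE 0.247, limma adjusted p = 0.999). With 1 library left out it ran from -0.52 to -0.28. The share of all tested genes without overlap was 10.3%, so 1 of 39 members was below the background.

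Fn1 (fibronectin), the cell-adhesive glycoprotein of the matrix, was at 5.13, 103 and 90.9 FPKM in the WT libraries and 54.4, 56.7 and 38.1 FPKM in the knockout libraries. WT replicates 2 and 1 differed 20.1-fold, and the log2 genotype difference was 0.36 (SE 1.04) with all libraries and -0.97 (SE 0.224) without WT replicate 1. Postn (periostin) was at 64.2, 177 and 100.1 FPKM in the WT libraries and 67.4, 64.0 and 86.9 FPKM in the knockout libraries, a difference of -0.53 (SE 0.364). The Postn difference was -0.87 without WT replicate 1 and -0.15 without WT replicate 2. Fstl1, a secreted follistatin-like glycoprotein, was at 55.5, 284 and 228 FPKM in the WT libraries and 131, 119 and 138 FPKM in the knockout libraries. Pcolce, which enhances procollagen processing, was at 53.2, 154 and 132 FPKM in the WT libraries and 105, 54.1 and 66.0 FPKM in the knockout libraries. Fn1, Fstl1 and Pcolce were lowest in WT replicate 1, and Postn was nearly as low there as in its lowest library. Fstl1 had a log2 difference of -0.25 (SE 0.580), and -0.97 (SE 0.198) without WT replicate 1. Pcolce had a log2 difference of -0.50 (SE 0.442), and -1.24 (SE 0.142) without WT replicate 1 and Rarres2-/- replicate 4. The limma adjusted p of Pcolce was 0.0419 in that fit, and 0.0163 to 1 over its 16 alternatives.

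Serpinf1, the secreted serpin PEDF, was at 103 to 265 FPKM and Tnxb (tenascin-X) at 11.1 to 29.7 FPKM, each lowest in WT replicate 1. Their log2 differences were -0.16 (SE 0.376) for Serpinf1 and 0.09 (SE 0.383) for Tnxb. Without WT replicate 1 these were -0.61 and -0.35. Mgp (matrix Gla protein) was at 41.5, 56.3 and 35.2 FPKM in the WT libraries and 61.7, 50.1 and 55.0 FPKM in the knockout libraries, a log2 difference of 0.34 (SE 0.208). Ccdc80, a secreted matrix protein of adipose tissue, was at 261 to 360.4 FPKM with a difference of 0.01 (SE 0.193). Unlike Dpp4 or Fn1, Ccdc80 was at 306 FPKM in WT replicate 1, between WT replicates 2 and 3. Cilp was at 0.0843, 2.39 and 1.27 FPKM in the WT libraries and 1.35, 1.32 and 0.833 FPKM in the knockout libraries, just above the level required for testing on average.

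Of the intracellular members, Vim varied least of all tested members, with an SD of 0.09 over the libraries on the log2 scale. Vim, the intermediate filament protein of mesenchymal cells, was at 604, 614 and 597 FPKM in the WT libraries and 600.4, 589 and 696 FPKM in the knockout libraries. Gsn, the actin-severing protein gelsolin, was at 4291, 4489 and 4292 FPKM in the WT libraries and 4305, 3462 and 3303 FPKM in the knockout libraries. S100a6, a calcium-binding protein, was at 178, 309 and 363 FPKM in the WT libraries and 196, 223 and 260.3 FPKM in the knockout libraries. Vim and Gsn did not follow WT replicate 1, whereas S100a6 was lowest there. The log2 differences were 0.05 (SE 0.184) for Vim, -0.25 (SE 0.242) for Gsn and -0.27 (SE 0.298) for S100a6. For S100a6 it was -0.57 without WT replicate 1. For Gsn it was -0.37 (SE 0.113, limma adjusted p = 0.388) without Rarres2-/- replicate 4.

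**Figure D2:**
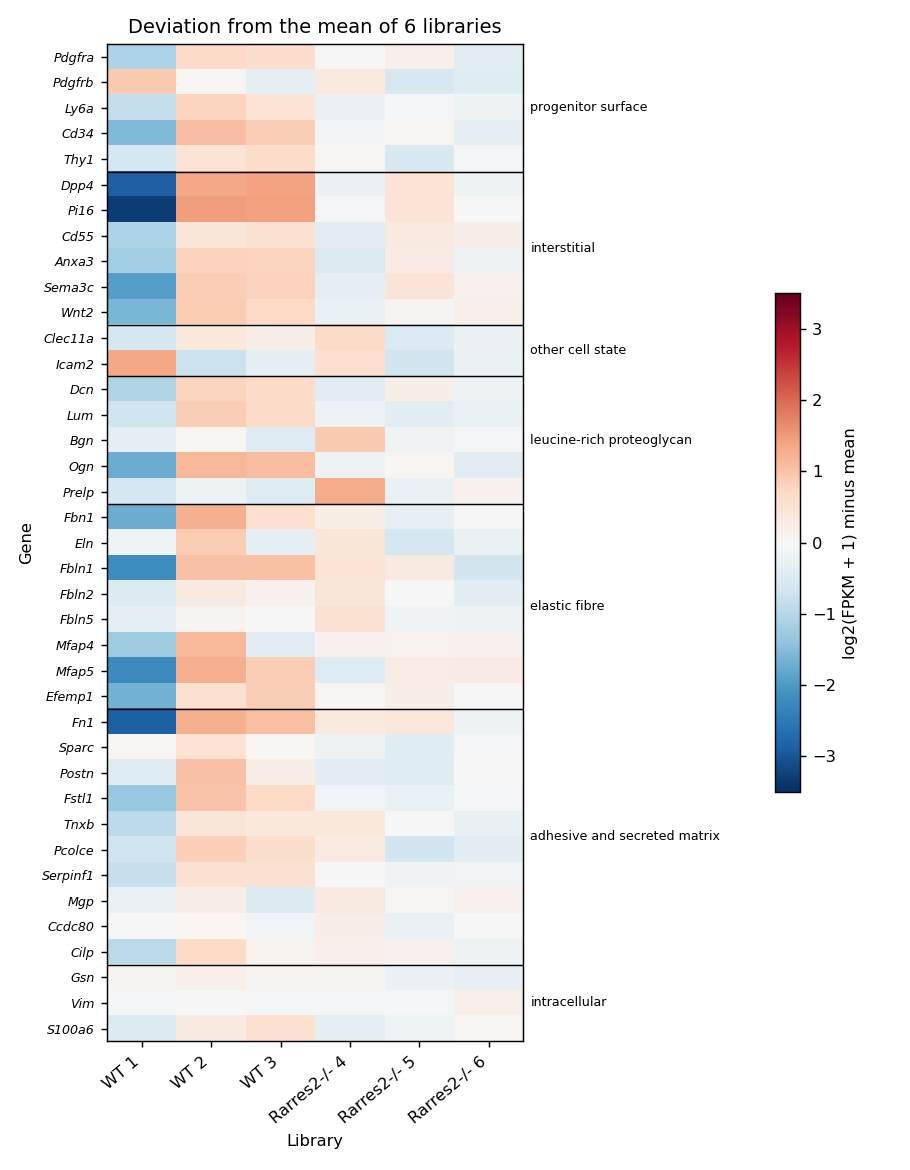
Deviation of log2(FPKM + 1) from the mean of the 6 libraries for the 39 tested genes (rows, grouped by role) in each library (columns), blue below and red above the mean. The WT replicate 1 column is the lowest of its row in 29 genes, deepest for Pi16 (-3.30), with Dpp4 (-2.84) and Fn1 close to it, and WT replicates 2 and 3 are red in most of these rows.

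Counted over the members, WT replicate 1 was the lowest library for 29 of 39 genes, against 28.8% of all tested genes. WT replicate 2 was the highest for 23 of 39, against 11.5%. The full order, with WT replicate 1 below all Rarres2-/- libraries and these below WT replicates 2 and 3, held for 22 of 39 members, against 7.07% of all tested genes. This order was first seen in values of the members themselves, so its count describes the members and is not a test. These 22 were all 6 interstitial genes, 4 of 5 progenitor surface genes, 11 of 23 matrix genes and S100a6. The matrix genes among them were Dcn, Lum, Ogn, Fbn1, Fbln1, Mfap5, Efemp1, Fn1, Fstl1, Pcolce and Serpinf1. The median log2 deviation of the members from the mean of the libraries was -0.83, 0.70 and 0.54 in WT replicates 1, 2 and 3 and 0.05, -0.06 and -0.17 in Rarres2-/- replicates 4, 5 and 6. Over all tested genes it lay between -0.04 and 0.02 in every library.

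Interstitial genes departed further from the other libraries than matrix genes did in WT replicate 1. The mean log2(FPKM + 1) of the 6 interstitial genes was 2.58, 5.53 and 5.51 in WT and 4.27, 4.91 and 4.60 in Rarres2-/-. That of the 23 matrix genes was 4.75, 6.42 and 6.05 in WT and 5.93, 5.64 and 5.62 in Rarres2-/-. The interstitial level minus the matrix level was -2.18, -0.89 and -0.55 in WT and -1.66, -0.73 and -1.02 in Rarres2-/-, so WT replicate 1 and Rarres2-/- replicate 4 had the lowest values. These are the libraries with the highest endothelial and mural marker sums, whose part in the result was not tested. The mean was -1.20 ± 0.86 in WT and -1.14 ± 0.47 in Rarres2-/- (SD, n = 3 each), a genotype difference of 0.07 on the log2 scale, smaller than the SD of either genotype. It was -0.42 without WT replicate 1, 0.33 without Rarres2-/- replicate 4 and -0.16 without both. A wider interstitial list of 11 genes, with Ly6a, Cd34, Mfap5, Fbn1 and Efemp1 added, gave 0.02.

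**Figure D3:**
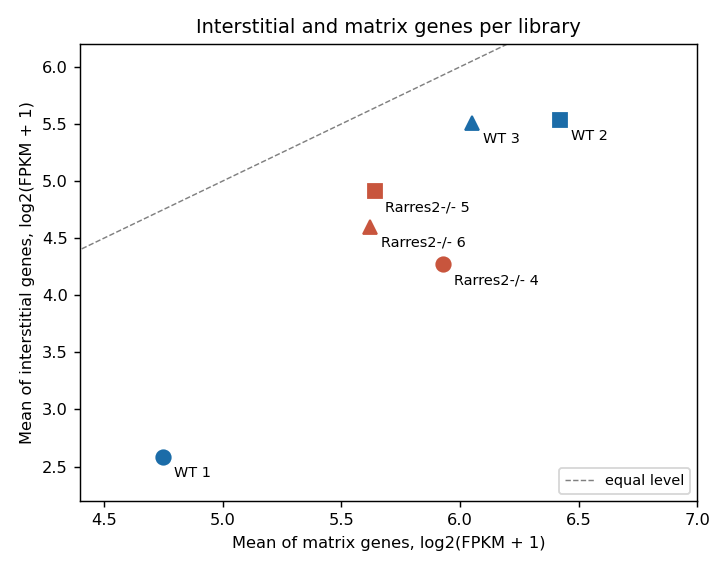
Mean log2(FPKM + 1) of the 6 interstitial genes against that of the 23 matrix genes, 1 point per library, WT in blue and Rarres2-/- in red, with the dashed line at equal levels. WT replicate 1 lies far below and to the left of the other libraries, at 2.58 and 4.75, and Rarres2-/- replicate 4 lies below replicates 5 and 6 at a higher matrix level.

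Across the genotypes, 0 of 39 members had a limma adjusted p under 0.05 (background 0%, 0 of 11086 genes). Rarres2, the gene the knockout mice lack, was not called either, at -7.51 (SE 0.592, limma adjusted p = 0.0597). The count of 0 therefore does not show that the members were unchanged. At an unadjusted p under 0.05 there were 0 members, against 3.93% of all tested genes. The log2 difference was above 0 for 19 members (48.6% of all tested genes) and below 0 for 20, with a median of -0.01, which is also the median of all tested genes. Without WT replicate 1 it was above 0 for 7 members (50.5% of all tested genes) and below 0 for 32, with a median of -0.62, while the median of all tested genes was 0.0021. In that fit 22 members, all lower in Rarres2-/-, had an unadjusted p under 0.05, against 6.48% of all tested genes called in that direction, and 0 had an adjusted p under 0.05 (background 0%). Libraries did not overlap, with all 3 Rarres2-/- values lower, in 24 of 39 members (background 14.8%), and in 0 members with all 3 higher (background 10.5%). Leaving out WT replicate 2 or WT replicate 3 instead gave medians of 0.19 and 0.11. The direction over the members therefore changed with the WT library left out.

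Without WT replicate 1 and Rarres2-/- replicate 4, 2 members, Lum and Pcolce, passed the adjusted threshold, both lower in Rarres2-/- (background 0.487%). The median over the members was -0.65 with 5 above 0 (54.0% of all tested genes) and 34 below 0, while the median of all tested genes was 0.03. The marker lists moved as well. In that fit, all 14 tested macrophage genes were lower in Rarres2-/-, with a median of -0.92, all 10 tested skeletal muscle genes were higher, with a median of 0.86, and the 12 endothelial genes had a median of 0.09. With all libraries these medians were -0.24, -0.04 and -0.15, and all 14 macrophage genes were lower there too. Array weights put WT replicates 1, 2 and 3 at 0.192, 2.81 and 2.27 and Rarres2-/- replicates 4, 5 and 6 at 0.179, 6.19 and 0.736. Most of the knockout weight thus lay on a single library, Rarres2-/- replicate 5. With these weights 10 members passed, all lower in Rarres2-/- (background 6.80%). They were Ly6a, Thy1, Clec11a, Lum, Sparc, Postn, Fstl1, Pcolce, Serpinf1 and S100a6, and none was an interstitial gene.

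**Figure D4:**
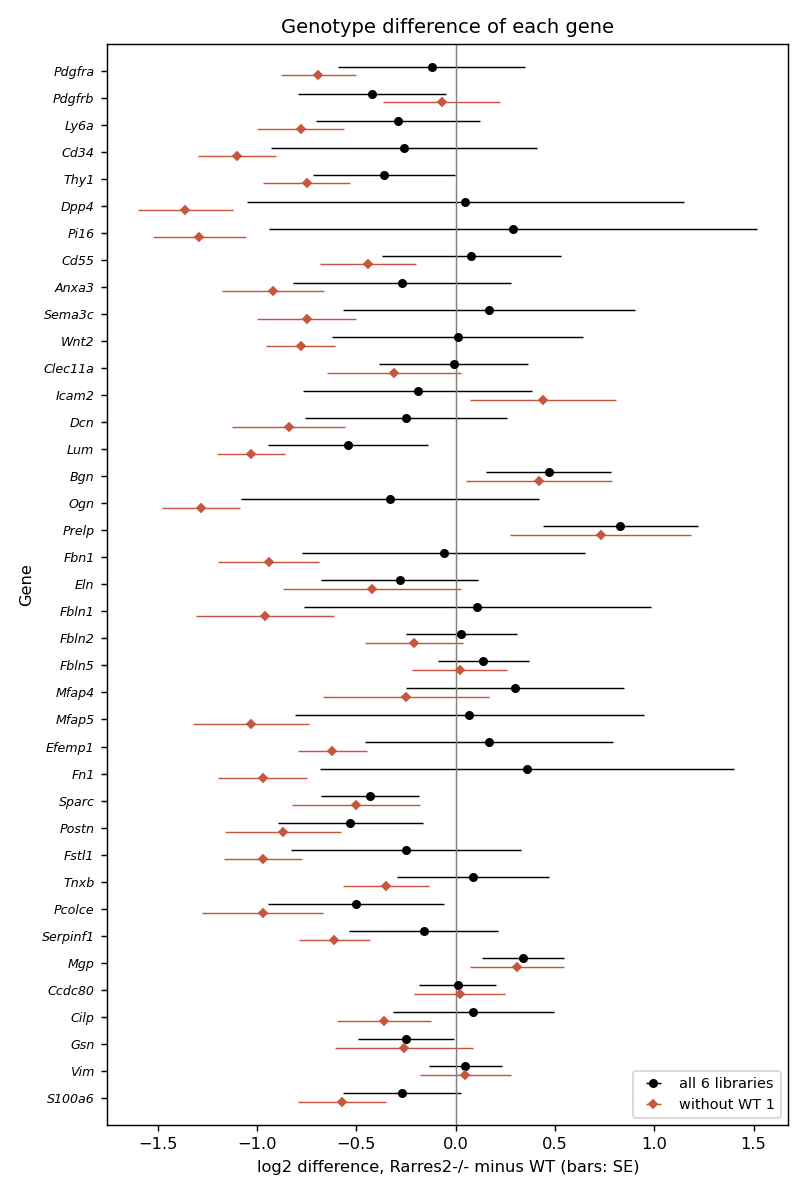
Difference in log2(FPKM + 1), Rarres2-/- minus WT, for each of the 39 tested genes with its SE, with all 6 libraries (black circles) and without WT replicate 1 (red diamonds). The black points centre on 0 with wide bars for Dpp4, Pi16 and Fn1, and most red points lie below 0, to -1.36 for Dpp4, while Prelp, Bgn, Mgp, Ccdc80, Fbln5 and Vim stay above it and Icam2 moves above it.

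Other cell types differed between the same libraries. The 15 macrophage markers summed to 505, 2092 and 2097 FPKM in the WT libraries and 1133, 1241 and 963 FPKM in the knockout libraries, the order seen for the interstitial genes. The 7 Schwann cell markers summed to 244 FPKM in WT replicate 1 and to 31.2 to 106 FPKM in the other libraries. The 10 adipocyte markers summed to 60895 to 76690.5 FPKM in the WT libraries and 43699.6 to 78939 FPKM in the knockout libraries, lowest in replicate 4. The 11 lymphocyte and lymph node markers summed to 9.09 to 65.6 FPKM, highest in WT replicate 3. The 8 mesothelial markers summed to 2.15 to 4.72 FPKM. The part of these differences in the levels of the members was not tested.

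**Figure D5:**
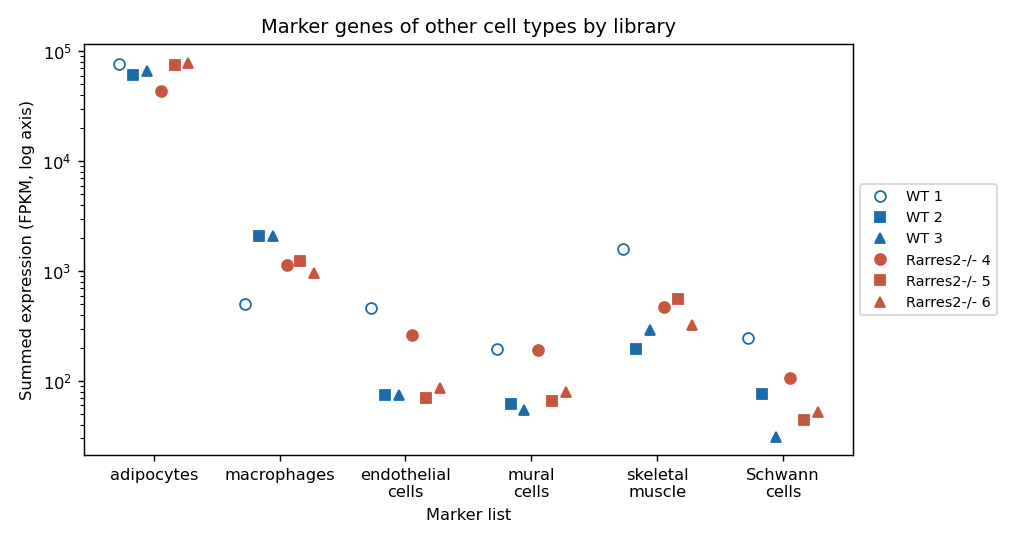
Summed FPKM (log axis) of marker genes of 6 other cell types, 1 point per library, WT in blue and Rarres2-/- in red. WT replicate 1 (open circle) is lowest for macrophages, at 505 FPKM, and highest for endothelial cells, at 463 FPKM, and for skeletal muscle, at 1574 FPKM.

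Further genes of the progenitor programme were taken from a list of 26, of which 25 were tested. None passed the adjusted threshold, 13 were higher and 12 lower in Rarres2-/-, and the median log2 difference was 0.0033. The even split rested on WT replicate 1, without which 9 were higher and 16 lower, with a median of -0.32. Without WT replicate 1 and Rarres2-/- replicate 4, 7 were higher and 18 lower, with a median of -0.38. F3, the tissue factor gene that codes for CD142, was at 12.6, 18.1 and 14.7 FPKM in the WT libraries and 43.1, 21.0 and 35.1 FPKM in the knockout libraries, with no overlap. Its log2 difference was 1.03 (SE 0.280, limma adjusted p = 0.999), and 0.82 to 1.32 with 1 library left out. Col15a1, a basement membrane collagen, was at 36.6 to 43.3 FPKM in the WT libraries and 44.2 to 62.8 FPKM in the knockout libraries, a difference of 0.43 (SE 0.179), also without overlap. Htra3, a secreted serine protease, had a difference of 0.35 (SE 0.250), which was 0.12 without Rarres2-/- replicate 4, its highest library at 214 FPKM, and 0.03 without WT replicate 1 and Rarres2-/- replicate 4. Without WT replicate 1 the differences of F3 and Col15a1 were 0.92 and 0.38. Both genes were named for their small p in these same libraries, and 10.3% of all tested genes had no overlap. Bmp7, a ligand known from interstitial progenitors and chosen after its values were seen, was at 0.0648, 5.48 and 4.59 FPKM in the WT libraries and 1.94, 2.11 and 2.17 FPKM in the knockout libraries.

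Of 19 genes of collagen fibres and matrix turnover, 0 passed, 15 were lower in Rarres2-/- and the median log2 difference was -0.16. Leaving out WT replicate 1, 17 were lower with a median of -0.62, and without WT replicate 1 and Rarres2-/- replicate 4 the median was -0.79. Col1a1, which codes for a chain of the main fibril collagen, was at 163, 964 and 521 FPKM in the WT libraries and 516, 212 and 293 FPKM in the knockout libraries, and Col3a1 at 339, 1623 and 956 FPKM and at 726, 414 and 578 FPKM. WT replicate 1 was the lowest library for both, with Rarres2-/- replicate 5 next. The 3 genes with the smallest p were Adamts5, a proteoglycan-cleaving protease, at -0.35 (SE 0.209), Mmp14, a membrane matrix metalloprotease, at -0.38 (SE 0.349), and the collagen gene Col1a2 at -0.51 (SE 0.522). With 1 library left out, Mmp14 ran from -0.73 without WT replicate 1 to -0.07 without WT replicate 2. Col1a2 ran from -1.10 to -0.09 with the same libraries left out, and Adamts5 from -0.51 without WT replicate 1 to -0.21 without Rarres2-/- replicate 4.

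Of 21 tested genes of PDGF and TGF-beta signalling, 0 passed, 12 were higher in Rarres2-/- and the median was 0.03. Leaving out WT replicate 1, 9 were higher and 12 lower, with a median of -0.06. Ctgf, a matricellular growth factor of the CCN family, was at 2.89, 2.08 and 3.09 FPKM in the WT libraries and 10.0, 5.05 and 5.36 FPKM in the knockout libraries, a difference of 1.04 (SE 0.262, limma adjusted p = 0.999). Smad7, an inhibitor of TGF-beta signalling, had a difference of -0.54 (SE 0.295), and -0.80 to -0.32 with 1 library left out. Ctgf thus had no overlap between genotypes, which held for 10.3% of all tested genes, and it was named for its small p. The fibroblast matrix genes Fn1, Postn and Col1a1 overlapped only through WT replicate 1. Without that library, all their Rarres2-/- values lay below both WT values, which held for 14.8% of all tested genes. For Col1a1 the closest values were 516 FPKM in Rarres2-/- replicate 4 and 521 FPKM in WT replicate 3. The matrix genes Eln, Tnxb, Bgn, Mgp and Cilp, among others, still overlapped. Sparc, also a matrix gene, had no overlap with all libraries in.

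In order of mean level, FPKM being scaled to transcript length, Gsn led at 4024 FPKM, followed by Sparc at 2114 FPKM, and no library of Gsn reached down to the highest value of Sparc. Sparc in turn did not overlap with Dcn, the third at 808 FPKM. From Dcn downward, through Vim at 617, Ly6a at 389.9, Pi16 at 194 and Dpp4 at 16.2 FPKM, each member overlapped with the next in the order, down to Cilp at 1.21 and Dlk1 at 0.159 FPKM. The interstitial genes thus ranged in mean level from Pi16 to Wnt2, at 3.78 FPKM.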

How the data were processed

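Total RNA of inguinal white adipose tissue was sequenced on an Illumina instrument, per the series description. For each library the authors deposited 1 table of FPKM values, the unit its file header states. The header for WT replicate 3 holds a sample name only, and its values were read as FPKM because genes and scale matched the others. Bowtie and mm10 are named in the submitters' processing notes. The program that computed FPKM, its annotation and the version numbers are not named there. Rows without a symbol (737, 0.793% to 4.91% of summed values) were left out. FPKM holds no counts, so absolute depth is unknown and no counting interval is given.

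The 11086 genes whose mean reached 1 FPKM were tested two-sided on log2(FPKM + 1). The fit used limma 3.58.1 under R 4.3.3 (lmFit, then eBayes with a mean-variance trend), a genotype term alone and Benjamini-Hochberg adjustment over all genes, and differences are Rarres2-/- minus WT. All adjusted p-values are limma's. An adjusted p under 0.05 was the threshold. No block was fitted, as the genotypes have different replicate numbers. The members and gene lists were chosen with earlier results of these data known. Named were all members, the 3 genes with the smallest p of each of 3 further lists, Rarres2, Col1a1, Col3a1 and markers near 0; Adipoq, Bmp7, Gdf10, Icam1, Pparg and Snord2 were added after their values were seen. A gene that the rule names in a further list is not reported here. Ackr3 and Adgre1 were matched by an older symbol (2 list genes). The level of a list is described by counts and medians beside all genes, without a test. Alternatives were a pseudocount of 0.1, 2 other filters, 3 other scalings, array weights, no trend, robust empirical Bayes and each library left out. The fit without WT replicate 1 and Rarres2-/- replicate 4 was added after values were seen. A wider interstitial list was used for the interstitial minus matrix difference only. The fit was tested on simulated data with independent noise for each gene. That simulation held no library that shifts many genes together, as WT replicate 1 does here, so it does not cover that case. Gene coordinates and promoter windows are from RefSeq on GRCm38.p6.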

Additional observations from a re-analysis of the deposited data

How the results depend on the processing

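In every planned fit other than array weights, 0 members passed the threshold. Members passing numbered 10 with array weights and 2 without WT replicate 1 and Rarres2-/- replicate 4, which was tried only once values had been seen. Of all genes, limma called 0 as reported, 1 with a filter of 5 FPKM in 3 libraries, 1 with upper-quartile scaling, 1 with scaling without the 20 most abundant genes, 1524 with array weights and 68 without those 2 libraries. With 1 library left out the count was 0 to 1. Of the 3 further lists, 0 genes passed as reported, 17 with array weights and 2 without both libraries. The median over the members ran from -0.62 to 0.19 and the interstitial minus matrix difference from -0.42 to 0.40 with 1 library left out. The sign turned for 28 of 39 members when some library was left out, for 16 with array weights and for 16 without both libraries, in the cases that follow. The cause was not tested. With 1 library left out, log2 differences ran from -0.69 to 0.18 for Pdgfra, -0.78 to 0.02 for Ly6a, -1.10 to 0.22 for Cd34, -1.36 to 0.77 for Dpp4, -1.29 to 1.08 for Pi16, -0.44 to 0.38 for Cd55 and -0.92 to 0.07 for Anxa3. They ran from -0.75 to 0.64 for Sema3c, -0.78 to 0.46 for Wnt2, -0.34 to 0.23 for Clec11a, -0.62 to 0.44 for Icam2, -0.84 to 0.07 for Dcn, -1.28 to 0.17 for Ogn and -0.94 to 0.55 for Fbn1. Ranges were -0.56 to 0.10 for Eln, -0.96 to 0.65 for Fbln1, -0.21 to 0.22 for Fbln2, -0.09 to 0.26 for Fbln5, -0.25 to 0.95 for Mfap4, -1.03 to 0.72 for Mfap5 and -0.62 to 0.64 for Efemp1. The values went from -0.97 to 1.08 for Fn1, -0.97 to 0.20 for Fstl1, -0.35 to 0.32 for Tnxb, -0.61 to 0.07 for Serpinf1, -0.11 to 0.12 for Ccdc80, -0.36 to 0.46 for Cilp and -0.02 to 0.10 for Vim. A further range was -1.16 to 0.12 for Col1a1. Without both libraries, values below these ranges that kept their sign were -0.73 for Pdgfra, -1.11 for Cd34, -0.65 for Clec11a, -1.06 for Fbn1, -0.70 for Eln, -0.98 for Fstl1, -0.65 for Serpinf1 and -1.51 for Col1a1. With array weights the differences that turned sign were -0.85 for Dpp4, -0.85 for Pi16, -0.13 for Cd55, -0.33 for Sema3c, -0.63 for Wnt2, -0.67 for Fbln1, -0.23 for Fbln2, -0.17 for Fbln5 and -0.28 for Mfap4. The rest were -0.72 for Mfap5, -0.42 for Efemp1, -0.69 for Fn1, -0.35 for Tnxb, -0.19 for Ccdc80, -0.27 for Cilp, -0.02 for Vim and -0.05 for Htra3. Without WT replicate 1 and Rarres2-/- replicate 4 they were -1.24 for Dpp4, -1.19 for Pi16, -0.22 for Cd55, -0.53 for Sema3c, -0.66 for Wnt2, 0.10 for Icam2, -1.18 for Fbln1, -0.41 for Fbln2 and -0.21 for Fbln5. The rest were -0.25 for Mfap4, -0.79 for Mfap5, -0.61 for Efemp1, -1.04 for Fn1, -0.52 for Tnxb, -0.10 for Ccdc80 and -0.43 for Cilp. Quantile normalization gave 0.07 for Clec11a and -0.0034 for Mfap5, upper-quartile scaling -0.0013 for Ccdc80 and scaling without the 20 most abundant genes 0.01 for Clec11a. No paired analysis was possible because the genotypes share no replicate number.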

Other observations

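The range of log2(FPKM + 1) was wider in WT for 32 of 39 members, against 45.6% of all tested genes. This rested largely on WT replicate 1. Between WT replicates 2 and 3 alone, a range over fewer libraries, it was wider than in Rarres2-/- for 10 of 39 members. That share was still above the 10.8% of all tested genes. For Pi16 it was 4.75 in WT and 0.55 in Rarres2-/-, for Dpp4 4.26 and 0.68, and for Fn1 4.09 and 0.56. Between WT replicates 2 and 3 it was 0.02 for Pi16, 0.06 for Dpp4 and 0.18 for Fn1. Mfap4 had the narrowest range in Rarres2-/-, 0.04, with 2.38 in WT. Bgn (0.51 and 1.05) and Prelp (0.44 and 1.53) had the wider range in Rarres2-/-, where replicate 4 was highest.

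Gdf10 and Icam1, listed with other progenitor states, also had single libraries apart. Gdf10 was at 7.01, 23.0 and 20.2 FPKM in the WT libraries and 36.3, 15.7 and 14.9 FPKM in the knockout libraries, and Icam1 at 5.63, 3.36 and 4.07 FPKM and at 7.39, 2.97 and 1.60 FPKM. Pparg, the master regulator of adipocyte differentiation, was at 151 to 209.5 FPKM in the WT libraries and at 84.4, 186 and 185 FPKM in the knockout libraries. Rarres2-/- replicate 4 was thus highest for Gdf10 and Icam1 and lowest for Pparg. These 3 genes were chosen after their values were seen.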
